A study of Homo sapiens and Mus musculus with 10 samples.

Results

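The 10 human globin genes and the control regions around them were described in ATAC-seq peak lists of 4 human cell lines. The members are HBZ, HBM, HBA2, HBA1 and HBQ1 of the alpha cluster and HBE1, HBG2, HBG1, HBD and HBB of the beta cluster, 10 of the 19962 protein-coding genes of GENCODE release 44 on the autosomes and X. Peaks were taken within 1 kb of any annotated start site of these genes, and within 100 kb of each cluster. On GRCh38 the alpha window is chr16:42728-281179 and the beta window is chr11:5125464-5605652. The 2 windows held 307 peaks in all, 163 in the alpha and 144 in the beta window, and these merged into 39 and 54 regions of 243200 in the genome. The beta window is long because annotated transcripts of HBG2 and HBE1 start at chr11 positions 5505605 and 5505652, far upstream of the genes' canonical start sites.

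ATAC-seq marks open chromatin by the places where the transposase Tn5 can insert sequencing adapters. The series has 10 libraries, and the 8 human ones were used, with 2 replicates of each line and no treatment named. K562 is an erythroleukaemia line, GM12878 a B-lymphoblastoid line, HFF1 a foreskin fibroblast line and HEK293T a line of embryonic kidney origin with the large T antigen of SV40. Nothing in the labels says that replicates came from separate cultures, so the spread between them may be technical. Each group is 1 established cell line. Start site peaks in both libraries were found at 5 of 5 markers of its own type in GM12878, HFF1 and HEK293T, but most genes have such peaks (67.8% to 76.2% of all protein-coding genes by line), and the HFF1 markers also had them at 3 of 5 in K562 and the HEK293T markers at 3 of 5 in HFF1. CD79A, CD79B and MS4A1 had theirs in GM12878 only. The erythroid markers GATA1 and TAL1 had theirs in K562 only, while KLF1, which activates the adult beta globin gene, had no start site peak in any library. The lists were shortest in HEK293T, with 52137 to 52438 peaks, followed by K562 with 71241 to 78601, GM12878 with 101704 to 103715 and HFF1 with 120344 to 127359. The background level, which is the reads per 150 bp window recovered from each list and rises with depth, was 0.465 to 0.466 in HEK293T, 1.71 to 1.73 in GM12878, 1.97 to 2.21 in K562 and 2.06 to 2.43 in HFF1. HEK293T was thus the shallowest line, which limits the weak peaks that could be called there. With every library scaled to that level, K562 still had start site peaks at 6 globin genes.

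Haemoglobin is built from alpha-like and beta-like globin chains. Within each cluster the genes lie in the order in which they are used in development, from the embryonic HBZ and HBE1 through the fetal HBG2 and HBG1 to the adult HBA2, HBA1, HBD and HBB. Both clusters depend on distal enhancers that are open in erythroid cells. For the alpha cluster these are the elements HS-48, HS-40, HS-33 and HS-10, named by their distance in kb upstream of HBZ, of which the first 3 lie in introns of the neighbouring gene NPRL3. For the beta cluster they form the locus control region, HS1 to HS5, upstream of HBE1, and a further site, 3'HS1, lies downstream of HBB. GATA1 and the NF-E2 complex are the best known factors at these enhancers, and HS5 and 3'HS1 are known as CTCF-bound boundary sites.

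The enhancer sequences are shown first, since the lines differed in which of them had a peak. Each is 151 bp of the GRCh38 plus strand centred on the K562 summit, read from the genome by the coordinates of the deposited peak. Capitals mark GATA matches, which are AGATAA or AGATAG and the pair TGATAA or TGATAG on either strand, and AP-1 matches (TGAGTCA on either strand, the core that NF-E2 also reads). A match is a match of letters and not a bound site. Of the alpha cluster elements, 3 are shown.
HS-48, chr16:105078-105228: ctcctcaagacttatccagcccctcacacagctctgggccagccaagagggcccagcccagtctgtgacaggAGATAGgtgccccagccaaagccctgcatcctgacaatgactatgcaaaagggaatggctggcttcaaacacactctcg
HS-33, chr16:120034-120184: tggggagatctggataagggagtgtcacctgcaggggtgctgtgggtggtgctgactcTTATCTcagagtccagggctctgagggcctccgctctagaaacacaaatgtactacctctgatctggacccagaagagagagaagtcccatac
HS-10, chr16:143123-143273: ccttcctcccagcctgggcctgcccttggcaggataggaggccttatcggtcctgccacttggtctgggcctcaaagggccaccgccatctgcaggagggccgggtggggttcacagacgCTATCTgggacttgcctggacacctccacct
The beta cluster elements were as follows, HS5 last since it had no GATA or AP-1 match.
HS1, chr11:5275907-5276057: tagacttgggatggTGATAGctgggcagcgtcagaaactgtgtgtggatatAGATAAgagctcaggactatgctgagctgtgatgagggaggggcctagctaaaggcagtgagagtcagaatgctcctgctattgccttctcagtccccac
HS2, chr11:5280690-5280840: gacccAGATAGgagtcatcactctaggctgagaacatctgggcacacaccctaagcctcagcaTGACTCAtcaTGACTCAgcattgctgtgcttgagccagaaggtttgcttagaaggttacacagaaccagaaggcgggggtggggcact
HS3, chr11:5284693-5284843: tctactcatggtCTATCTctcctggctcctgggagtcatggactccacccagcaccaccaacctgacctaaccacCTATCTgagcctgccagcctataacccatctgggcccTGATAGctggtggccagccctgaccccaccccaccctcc
HS4, chr11:5288214-5288364: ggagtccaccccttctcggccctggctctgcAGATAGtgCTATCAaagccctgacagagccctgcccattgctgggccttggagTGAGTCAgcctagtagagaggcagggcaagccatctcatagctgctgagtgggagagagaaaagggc
HS5, chr11:5291336-5291486: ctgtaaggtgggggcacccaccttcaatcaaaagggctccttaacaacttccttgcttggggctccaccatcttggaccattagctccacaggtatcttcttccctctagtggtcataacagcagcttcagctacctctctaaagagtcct

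Each of HS-48, HS-33 and HS-10 held 1 GATA match, HS1 and HS4 held 2, HS2 held 1 and HS3 held 3. HS2 held 2 AP-1 matches, and HS4 held 1. In HS2, 1 AP-1 match lay within a longer match, the Maf recognition element to which NF-E2 binds with its small Maf partner. For comparison, 24.5% and 24.1% of all K562 peaks in replicates 1 and 2 held a GATA match in the same length, 9.99% and 9.67% an AP-1 match, and 0.884% and 0.865% the longer element.

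The alpha cluster enhancers were called mostly in K562. HS-40, the main alpha globin enhancer, had a deposited fold of 9.82 in K562 replicate 1 and 11.1 in replicate 2, where the fold sets the summit pileup of a library against its own local background. HFF1 also had a peak there, with folds of 8.63 and 9.70, and GM12878 and HEK293T had none. HS-33 had folds of 7.33 and 7.89, HS-48 of 6.59 and 7.24, and HS-10 of 4.85 and 5.96, all in K562 and in no library of another line. HS-40 was therefore the alpha enhancer shared with fibroblasts, and the other 3 were called in K562 alone.

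Because the fold depends on local background, summit pileups were also set over the background level of each library. On this scale HS-40 reached 28.5 and 34.6 in K562, a mean of 31.6 ± 4.27 (SD, n = 2), against 15.2 and 16 in HFF1, a mean of 15.6 ± 0.569 (SD, n = 2). The K562 and HFF1 values did not overlap, although 2 libraries against 2 cannot give a permutation p under 0.333. HS-10 reached 19.0 and 23.4, HS-33 16.8 and 18.3, and HS-48 13.1 and 13.7 in K562. HS-40 was the highest of the 4 in both K562 libraries.

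The locus control region showed the same division. HS1 had K562 folds of 6.21 and 5.5, HS3 of 4.26 and 4.45, and HS4 of 7.36 and 7.72, and none of them had a peak in any other line. HS2, the strongest enhancer of the locus control region in many assays, had peaks in 3 lines. Its folds were 8.42 and 7.77 in K562, whereas GM12878 had 15.7 and 15.3, HFF1 had 15.9 and 18, and HEK293T had no peak. HS5 and 3'HS1 had a peak in all 8 libraries. At HS5 K562 had folds of 6.93 and 6.28, GM12878 of 13.3 and 14.6, HFF1 of 10.5 and 6.86, and HEK293T of 8.28 and 12.2. At 3'HS1 K562 had 13.5 and 11.4, GM12878 13.3 and 16.1, HFF1 14 and 13.7, and HEK293T 6.81 and 7.16. In HFF1, HS2 lay at percentile 99.1 and 99.8 of the list by fold, so a globin enhancer was among the most enriched peaks of a fibroblast.

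The order of the lines at HS2 turned when local background was set aside. The summit pileup of K562 was 95 and 83 reads, that of GM12878 46 and 45, and that of HFF1 75 and 75. Over the background level of each library K562 reached 43 and 42.2, GM12878 26.9 and 26, and HFF1 30.8 and 36.4. K562 was thus the highest line by pileup and the lowest of the 3 by fold. The local background at HS2 stood at 4.71 and 4.99 times the background level in K562, while GM12878 was at 1.17 and 1.16 and HFF1 at 1.55 and 1.56. Across HS1 to HS5 the line means of this ratio in K562 lay between 3.70 at HS5 and 5.25 at HS3, while at HS5 it was 1.00 in GM12878 and HFF1 and 1.21 in HEK293T. The recovered local background at these elements was therefore raised in K562, and the deposited fold places K562 lower than the pileup does. Whether the raised background comes from reads of the elements themselves or from reads between them was not tested. The alpha elements had lower local ratios in K562, from 1.53 at HS-48 to 3.53 at HS-10.

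**Figure D1:**
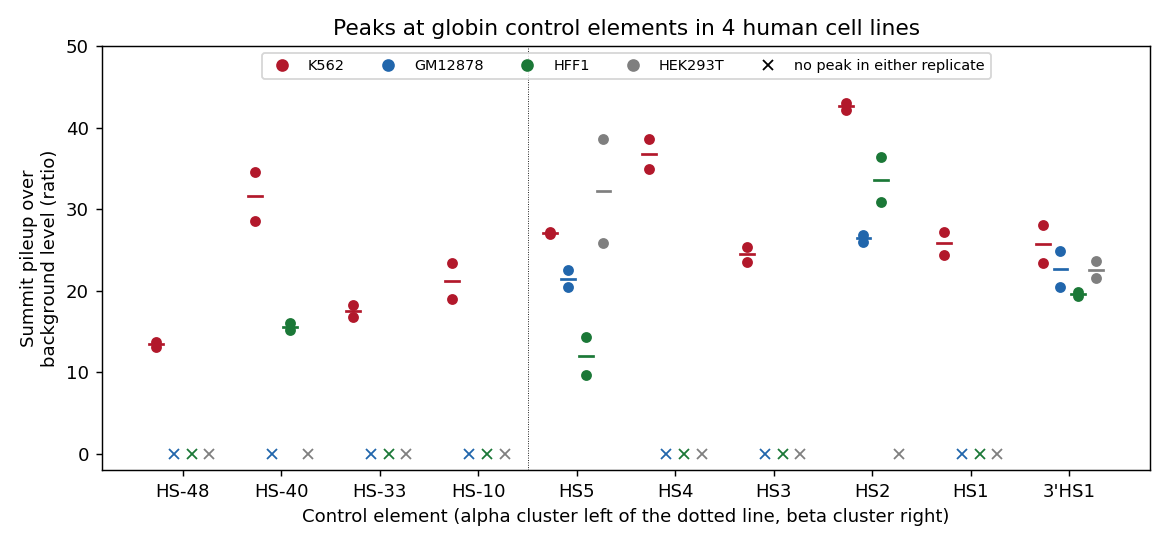
Summit pileup over the background level of the library (y axis, ratio) at the 10 control elements (x axis) in 4 lines. Points are replicates, short bars are means of 2 libraries and crosses mark elements without a peak in either replicate. HS5 and 3'HS1 carry points in every line, HS2 in 3 lines, HS-40 in K562 and HFF1, and the other 6 in K562 alone.

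Between HS5 and 3'HS1 the beta cluster had few peaks outside K562. The CTCF consensus had no match in the 151 bp at either site, against matches in 3.97% and 4.09% of all K562 peaks, which says only that those letters are not in these windows. HS5 and 3'HS1 have summits 86.4 kb apart, and the stretch between them holds all 5 beta-like genes at their canonical start sites, with HS1 to HS4. K562 had 13 and 11 peaks in this stretch, GM12878 1 and 1, HFF1 2 and 2, and HEK293T 0 and 0. The GM12878 peak was HS2, and the HFF1 peaks were HS2 and the HBD start site. Of the 13 merged regions in the stretch, 10 were called in K562 (a peak in both replicates). The share of all merged regions called in K562 was not counted, so the 10 has no background beside it. Of the 13, 8 were K562-specific (no peak in any library of another line), against 6.31% of all merged regions. Of the 30 regions upstream of HS5, 6 were K562-specific, and of the 9 regions downstream of 3'HS1, 6 were, against the same 6.31%.

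**Figure D2:**
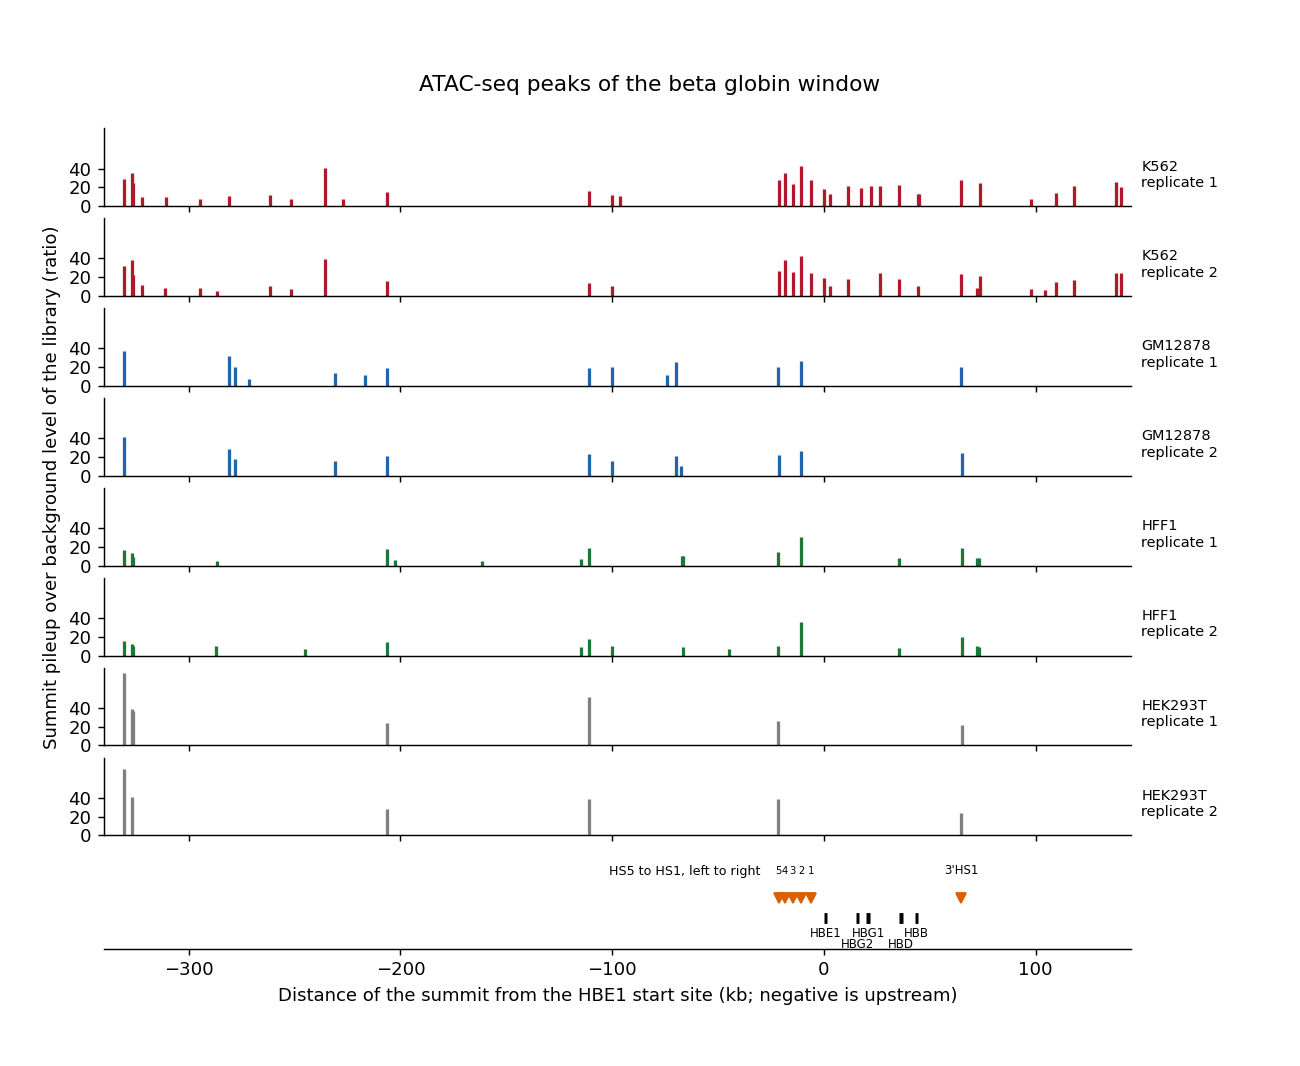
Peaks of the beta window in the 8 libraries, placed by the distance of the summit from the HBE1 start site (x axis, kb, negative is upstream), with the summit pileup over the background level as height (y axis, ratio, strongest peak per region). Orange marks are control elements and black marks canonical transcripts. Between HS5 and 3'HS1 the K562 libraries show 13 and 10 regions with a peak, and the other lines 0 to 2.

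At the start sites, 6 of 10 globin genes had a peak in both K562 libraries, against 70.4% of all protein-coding genes, so the globin genes were not more often open at their starts than other genes. In HFF1 this held for 4 of 10 (76.2% of all genes), in GM12878 for 3 of 10 (71.9%) and in HEK293T for 1 of 10 (67.8%). HBE1 and HBG2 were open in K562 alone, with a peak in each replicate, a pattern shown by 1.12% of all genes. HBA2, HBB and HBG1 had none in any library, against 14.7% of all genes. The genes differed in which start site carried the peak, and they are described below by cluster.

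HBE1, the embryonic beta-like gene, had a peak at its canonical start site in K562 only. The fold was 5.75 in replicate 1 and 5.86 in replicate 2, with summits 60 bp and 32 bp upstream of the start. A second K562 peak lay over the distal start sites that annotation gives to HBE1 and HBG2, with its summit 235.8 kb upstream of the HBE1 canonical start. It was stronger, with folds of 8.38 and 8.12 and pileups of 90 and 77 reads. This distal peak was the only start site peak of HBG2, a fetal gamma globin gene, whose canonical start had no K562 peak nearer than 2211 bp and 3749 bp in the 2 replicates.

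HBD, the minor adult beta-like gene, had a canonical start site peak in K562 and in HFF1. The folds were 7.40 and 5.92 in K562 and 6.12 and 5.88 in HFF1. With every library scaled to the lowest background level, HBD had a start site peak in 2 K562 libraries and in 0 HFF1 libraries. The start is at chr11 position 5234483, and the summits lay upstream of it at 5234588 and 5234579 in K562 and at 5234685 and 5234711 in HFF1, so the HFF1 summits were farther from the gene in both replicates. A K562 peak of lower fold covered a distal HBD start site, with folds of 3.25 and 3.86. Over the background level its summit pileup was 21.3 and 24.9 in the 2 replicates, against 22.6 and 18.3 at the canonical start. HBD is 1 of 2 globin genes with an entry in the RefSeq promoter table of GRCh38.p14 used here. Its 250 bp upstream of the start, read on the minus strand, are shown with the GATA and AP-1 matches in capitals. In the deposited lists this was the only beta-like start site with a peak outside K562.
HBD, chr11:5234484-5234733: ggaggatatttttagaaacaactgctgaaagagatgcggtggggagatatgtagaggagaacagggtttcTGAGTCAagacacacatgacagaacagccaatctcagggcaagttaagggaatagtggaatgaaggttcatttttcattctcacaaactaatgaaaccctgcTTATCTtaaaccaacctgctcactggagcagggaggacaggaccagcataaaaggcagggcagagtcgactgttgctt
This stretch held 1 GATA, 1 AP-1, 1 CCAAT and 1 TATA match, the TATA match being ATAAAA or TATAAA on either strand. In the 250 bp before the start, 22.3%, 4.2%, 32.0% and 19.7% of 35116 RefSeq promoters held such matches, in the same order.

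HBB, the adult beta globin gene, missed the 1 kb limit by little in K562. Its nearest peak began 1031 bp and 1011 bp from the nearest annotated start site, with folds of 5.29 and 4.85, and covered the 3' end of the gene. On the other side of the limit, the HEK293T peaks counted for HBQ1 began 945 bp and 954 bp from its start. HBG1, the other fetal gamma globin gene, had its nearest K562 peak at 2042 bp and 6016 bp. No other line had a peak within 5 kb of any start site of HBB or HBG1.

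The embryonic alpha-like gene HBZ had a canonical start site peak in K562 with folds of 5.09 and 6.97 and in GM12878 with folds of 3.66 and 4.15. HFF1 had 1 in replicate 1 only, with a fold of 3.33, and HEK293T had none. The K562 summits lay 23 bp and 30 bp upstream of the start, the GM12878 summits 121 bp and 115 bp. HBZ has another annotated start at chr16 position 142728, and the K562 peak of HS-10 lies within 1 kb of it. Its summits were 470 bp and 499 bp downstream of that start. The pileups there were 42 and 46 reads, against 24 and 32 at the canonical start. HBM, an alpha-like gene of little known protein product, had peaks near an upstream start site that lies within HBZ, with summits just past the HBZ end. Their folds were 7.28 and 6.91 in K562, 6.03 and 7.53 in GM12878, and 4.41 and 4.46 in HFF1. At the canonical HBM start itself only GM12878 had a peak, with folds of 3.51 and 4.08.

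HBQ1, the theta globin gene at the end of the alpha cluster, had a peak in all 8 libraries. The strongest had folds of 5.86 and 5.88 in K562, 9.94 and 11.4 in GM12878, 6.93 and 7.97 in HFF1, and 9.12 and 7.89 in HEK293T. Its summit lay 1027 bp to 1135 bp downstream of the start in all 8, past the end of the gene. With a limit of 500 bp, HBQ1 had a peak in K562 and HFF1 only. HBA1, an adult alpha globin gene, was reached by a peak in HFF1 only, with folds of 5.82 and 4.42 and the summit 898 bp downstream of the canonical start. HBA2, its twin upstream, had no K562 peak nearer than 2637 bp and 7367 bp. In both K562 libraries peaks thus lay over the canonical starts of HBZ, HBE1, HBD and HBQ1, and none lay within 1 kb of those of HBA2, HBA1, HBG2, HBG1 and HBB.

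The starts of the duplicated genes carry a limit of the sequence itself. Within 200 bp of the HBG1 and HBG2 canonical starts, 100% of 100 bp words occurred again elsewhere in the beta window. For HBA1 and HBA2 the share was 66.9% in the alpha window, for HBZ 7.95%, and for HBM, HBQ1, HBE1, HBD and HBB 0%. With 50 bp words it was 85.8% for HBA1 and HBA2, 21.0% for HBZ and 1.99% for HBD and HBB. Within 1 kb, the span used to count peaks, the share of 100 bp words was 32.0% for HBG1 and 31.8% for HBG2. It was 54.9% for HBA1, 56.1% for HBA2 and 19.1% for HBZ, so part of that span is unique in each gene. Reads from such words cannot be placed in 1 copy, and how multiply mapped reads were treated is not given in the sources used here. The missing peaks at the canonical starts of HBA1, HBA2, HBG1 and HBG2 are uncertain for this reason, while HBB has no repeated words of 100 bp.

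**Figure D3:**
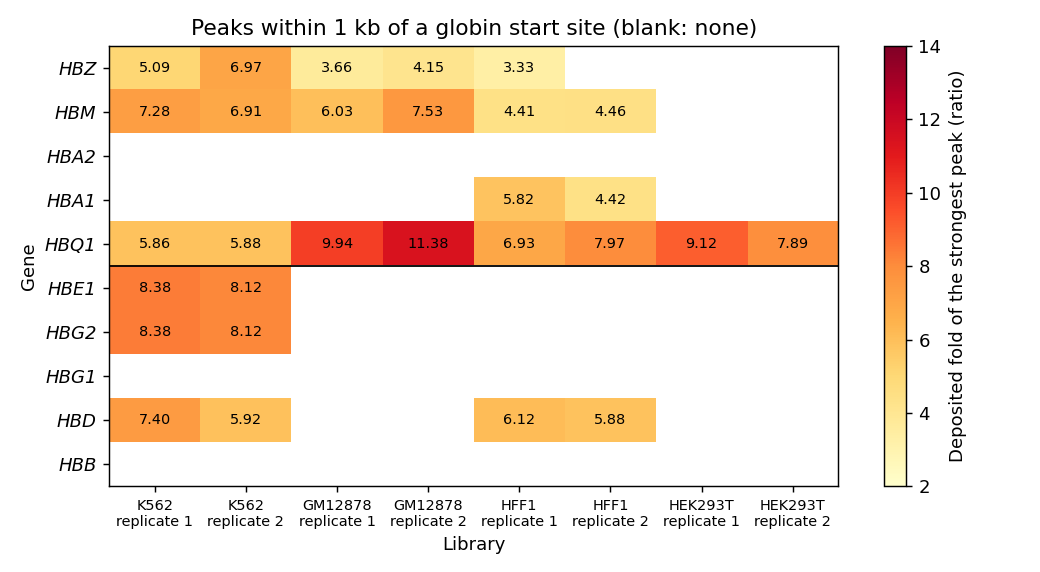
Deposited fold (colour and number, ratio) of the strongest peak within 1 kb of any annotated start site of each globin gene (vertical axis) in each library (horizontal axis), blank where there is none. The alpha cluster lies above the black line. HBQ1 has a peak in all 8 libraries, HBE1 and HBG2 share a distal K562 peak of 8.38 and 8.12, and HBA2, HBG1 and HBB are blank.

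The beta window as a whole held more peaks in K562 than in the other lines. The K562 libraries had 36 and 34 peaks there, the GM12878 libraries 14 and 13, the HFF1 libraries 17 each, and the HEK293T libraries 7 and 6. Per 10000 peaks of the list, K562 averaged 4.68 ± 0.136 (SD, n = 2), GM12878 1.31 ± 0.0871, HFF1 1.37 ± 0.055 and HEK293T 1.24 ± 0.13. Peaks covered 11893 ± 738 bp of the window in K562 (SD, n = 2), whereas GM12878 had 4361 ± 417 bp, HFF1 4344 ± 341 bp and HEK293T 1483 ± 22.6 bp. K562 did not overlap any other line in these 3 measures.

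In the alpha window the lines were closer. K562 held 26 and 22 peaks, GM12878 21 and 19, HFF1 29 and 24, and HEK293T 13 and 9. Per 10000 peaks of the list, K562 averaged 3.2 ± 0.155 (SD, n = 2), GM12878 1.95 ± 0.165, HFF1 2.14 ± 0.2 and HEK293T 2.1 ± 0.532. The covered length averaged 11344 ± 693 bp (SD, n = 2) for K562, 10349 ± 392 bp for GM12878, 11496 ± 331 bp for HFF1 and 3142.5 ± 380 bp for HEK293T. K562 and HFF1 overlapped in peak number and in covered length, while K562 was highest per 10000 peaks. That order turned with lists cut to the 20000 peaks of highest −log10 p, where GM12878 averaged 3.5 in both libraries and K562 3.25 ± 0.354 (SD, n = 2).

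The 4 lines were tested together by eta squared, the part of the variance that lies between lines, in an exact one-sided permutation test over every way of pairing 8 libraries, with Benjamini-Hochberg adjustment over 6 tests. For the beta window, eta squared was 0.997 for peak number (exact p = 0.00952, the smallest this design can give, adjusted p = 0.0571). It was 0.993 for the length covered (exact permutation p = 0.0286, adjusted p = 0.0714). It was 0.997 per 10000 peaks (exact permutation p = 0.0667, adjusted p = 0.08). For the alpha window it was 0.901 for peak number (exact permutation p = 0.0381, adjusted p = 0.0714), 0.991 for the length covered (exact permutation p = 0.0476, adjusted p = 0.0714) and 0.841 per 10000 peaks (exact permutation p = 0.124, adjusted p = 0.124). None of the 6 passed 0.05 after adjustment. With lists cut to the 20000 strongest peaks all 6 did, with adjusted p from 0.0343 to 0.0476 in the same exact permutation test, but with equal list lengths peak number and peaks per 10000 are the same measure, so only 4 of these tests are distinct.

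**Figure D4:**
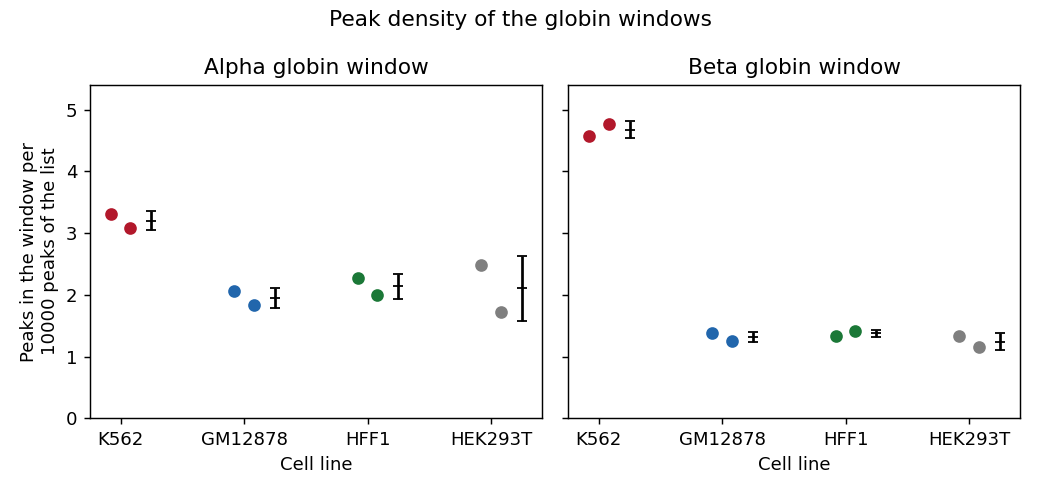
Peaks in the alpha (left) and beta (right) window per 10000 peaks of the list (y axis) in each line (x axis). Points are the 2 replicates, and the black mark gives their mean and SD. In the beta window K562 lies at 4.58 and 4.77 and the other 6 libraries between 1.15 and 1.41.

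K562-specific regions made up 20 of 54 in the beta window and 4 of 39 in the alpha window, against 6.31% of all merged regions. For GM12878 the counts were 3 and 2 (14.7% of all regions), for HFF1 3 and 6 (21.2%) and for HEK293T 0 and 0 (1.78%). Regions called in all 4 lines numbered 5 in the beta and 6 in the alpha window, against 8.53%. The GM12878 and HFF1 counts moved when 1 library was left out, which by construction can only keep or raise such a count. Beta GM12878-specific regions numbered 5 without GM12878 replicate 1 and 6 without replicate 2. Beta HFF1-specific regions numbered 5 without K562 replicate 2 or HFF1 replicate 1 and 6 without HFF1 replicate 2, and the alpha count rose to 10 without HFF1 replicate 2. Scaling every library to the lowest background level left 0 beta and 2 alpha HFF1-specific regions. Under the same scaling, 12 beta regions were K562-specific, and without the flanks beyond 50 kb there were also 12.

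The 4 K562-specific regions of the alpha window were HS-33, HS-48, HS-10 and a weaker region 7.5 kb upstream of HBZ, with mean K562 folds of 7.61 ± 0.396, 6.92 ± 0.466, 5.41 ± 0.783 and 3.74 ± 0.546 (SD, n = 2). The last lies at chr16:144912-145225 in an intron of the long HBZ transcript. NPRL3, a gene of the complex that restrains mTORC1 signalling, had 7 intronic regions. Of these, 6 were called in K562, a share not counted over the genome, and 2 were K562-specific (6.31% of all regions). All 7 alpha neighbours listed (POLR3K, SNRNP25, RHBDF1, MPG, NPRL3, LUC7L and FAM234A) had start site peaks in both libraries of K562, GM12878 and HFF1, and 5 of 7 did in HEK293T. The window has 9 protein-coding genes besides the globins. Of these, 7 had such peaks in K562 (70.4% of all genes), 8 in GM12878 (71.9%), 7 in HFF1 (76.2%) and 5 in HEK293T (67.8%). Outside the list, RGS11 had them in GM12878 only and ARHGDIG in no line. The 6 alpha regions called in all 4 lines lay near the starts of SNRNP25, NPRL3, LUC7L and FAM234A, in NPRL3 55.5 kb upstream of HBZ, and past the end of HBQ1. The 5 beta regions of this kind were HS5, 3'HS1 and sites 111 kb, 206.5 kb and 330.5 kb upstream of the HBE1 start.

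**Figure D5:**
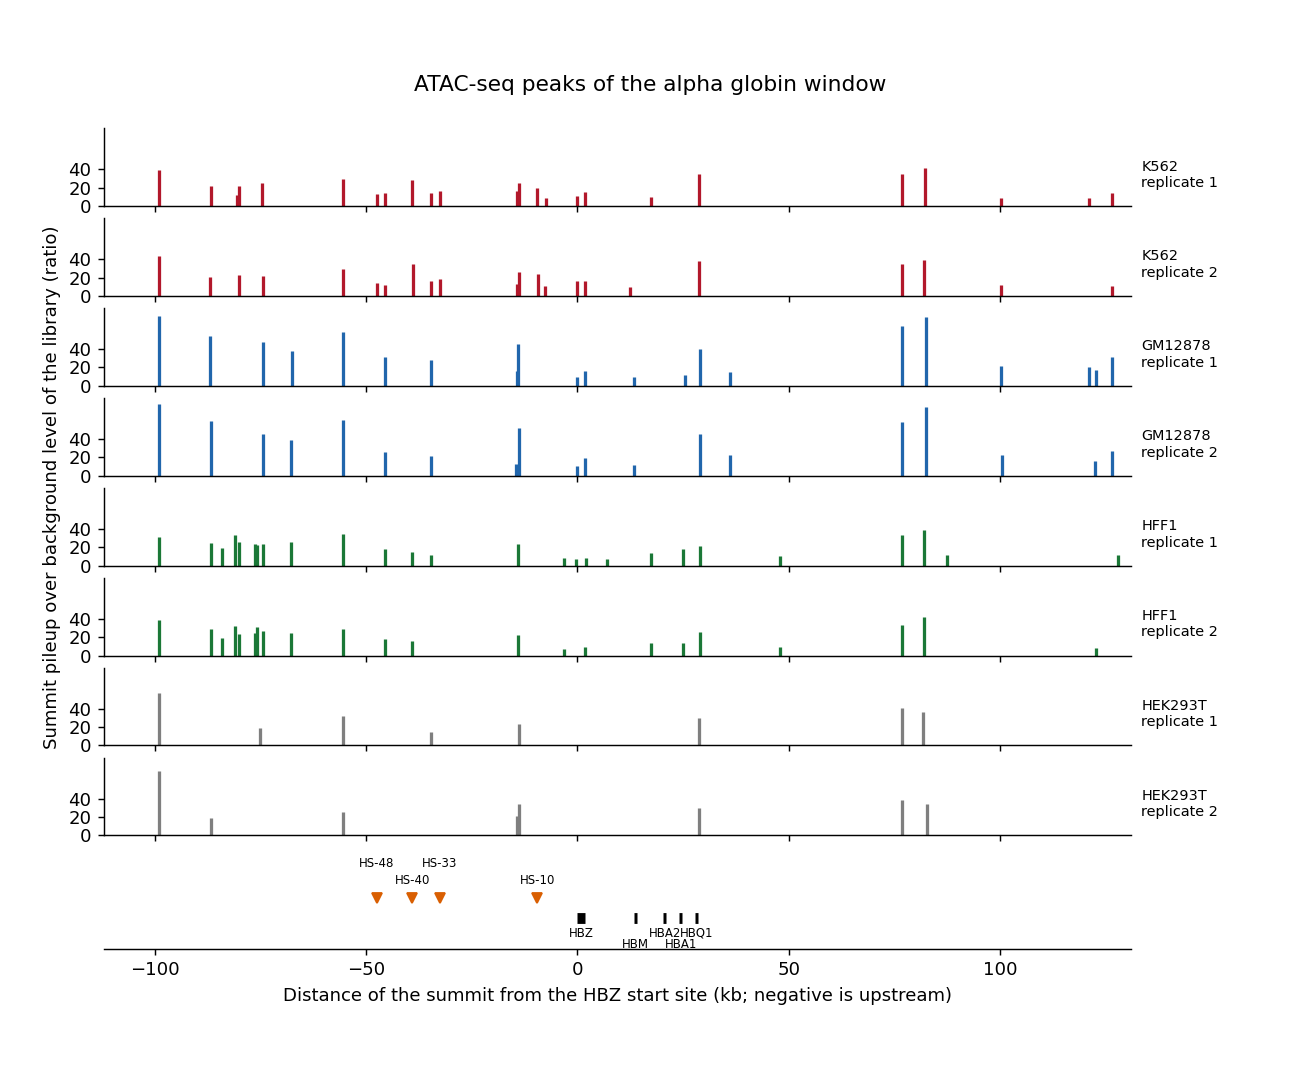
Peaks of the alpha window in the 8 libraries, placed by the distance of the summit from the HBZ start site (x axis, kb, negative is upstream), with the summit pileup over the background level as height (y axis, ratio, strongest peak per region). Orange marks are control elements and black marks canonical transcripts. All lines have peaks at both ends of the window and near HBQ1, while HS-48, HS-33 and HS-10 are filled in K562 alone.

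Of the 20 K562-specific regions of the beta window, the 5 of highest mean fold were all outside HS1 to HS4. The highest, at chr11:5196135-5196452, lies 73.7 kb downstream of the HBE1 start, beyond 3'HS1 and 4403 bp from the nearest coding start, that of the olfactory receptor gene OR51V1. Its folds were 11.4 and 9.86. The second, at chr11:5131806-5132312, lies 137.9 kb downstream over an exon annotated to OR52A5, with folds of 9.48 and 8.58. The third is the distal start of HBE1 and HBG2, at chr11:5505503-5505890. The fourth, at chr11:5129238-5129901, lies 140.4 kb downstream, also over OR52A5, with folds of 7.63 and 8.34. The fifth, at chr11:5160099-5160717, lies 109.6 kb downstream and 5614 bp from the start of OR52A1, with folds of 8.08 and 7.84. On the pileup scale the order differed, with the distal start at 40.8 and 39.1 in the 2 replicates and HS4 at a mean of 36.8, above the region at 73.7 kb with a mean of 22.7.

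The 20 regions ran from 321.8 kb upstream to 140.4 kb downstream of the HBE1 start, with mean folds from 3.23 to 10.7 and a median of 5.83. Besides those named they included HS1, HS3 and HS4, the HBE1 canonical start, the distal HBD start, the 3' end of HBB and a region 11.2 kb downstream of the HBE1 start, between HBE1 and HBG2. Most other genes of the beta window are olfactory receptor genes, which code for odour receptors of the nose. Of its 20 other protein-coding genes, 5 had start site peaks in both K562 libraries (70.4% of all genes), 2 in GM12878 (71.9%), 4 in HFF1 (76.2%) and 2 in HEK293T (67.8%), and 13 had none in any library (14.7%). Those with a peak in both libraries of a line were OR51B5 and OR52B6 in K562, OR52H1 in GM12878, OR51M1 in HFF1, TRIM6 and TRIM6-TRIM34 in K562, HFF1 and HEK293T, and the readthrough gene ENSG00000239920 in K562, GM12878 and HFF1.

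GATA matches were counted by the lines in which a region was called. Within 151 bp at the summit, 4 of 4 alpha and 10 of 20 beta K562-specific regions held 1 or more, against 47.4% of all K562-specific regions of the genome, so the beta share was close to that of such regions elsewhere. None of the 6 alpha and 5 beta regions called in all 4 lines held one. The share over all regions of that kind in the genome was not counted, so this 0 has no background beside it. AP-1 matches were found in 2 of the 24 K562-specific regions of both windows. Over the genome, 11.7% of K562-specific regions held an AP-1 match. These are descriptions of few regions, and no test was made.

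Of 24 regulators and partners of haemoglobin, 21 had start site peaks in both K562 libraries (70.4% of all genes did), 19 in GM12878 (71.9%), 18 in HFF1 (76.2%) and 17 in HEK293T (67.8%), and 16 had them in all 8. The HFF1 and HEK293T counts were near the share of all genes. GATA1 and TAL1, transcription factors of erythroid cells, were the 2 with peaks in K562 alone. NFE2, BCL11A and ZBTB7A, of which the last pair silences the gamma globin genes, had peaks in all 8. KLF1 and ALAS2, the erythroid enzyme of haem synthesis, had none.

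Genes whose start site pattern was most like that of a globin gene were named by their mean fold percentile in K562 among genes with peaks in the same libraries. For HBM, at percentile 60.1 with peaks in 6 libraries, they were KCNAB1, RIN1, C10orf71, TNFSF12 and TNFSF12-TNFSF13 of 415 genes. For HBG2, at percentile 72.3 with peaks in the 2 K562 libraries, they were ZNF556, TMEM45B, NAA11, SLC30A8 and AQP10 of 222 genes. The HBG2 value is that of the distal peak it shares with HBE1, which has the same percentile. The HBM value is that of the peaks near its upstream start within HBZ. Neither describes a canonical start.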

How the data were processed

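Bulk ATAC-seq peak lists of 8 human libraries were used, and the mouse lists were not. Per the labels' protocols, each library came from about 20000 sorted nuclei, with 15 cycles of PCR and a fragment range of 200 to 700 bp. The submitters' processing notes name cutadapt 3.2, Bowtie2 2.4.2, Picard, MACS2 2.2.7.1 and hg38, with no role or order; the read shift and the treatment of multiply mapped reads are not given in the sources used here. The authors deposited 1 narrowPeak list per library, so replicates were not pooled, with a fold (a linear ratio) per peak. The deposited −log10 p and −log10 q values were used to filter peaks and to recover reads. Folds are the authors' and were used within a list or set side by side without a test.

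Only autosomal and X peaks entered, with coordinates counted from 1. No peak passed a GRCh38 chromosome end. A whole pileup and a local background were recovered from each fold and −log10 p for 100% of peaks (tolerance 0.005), after a check on simulated data, and the most common background of a list is its background level. Peaks overlapping by 1 bp were merged across libraries into regions. Elements were matched by summit within 1 kb of their named distance. Letters were searched on both strands (GATA, AP-1, Maf element, CCAAT, TATA and, by name, the CTCF consensus). Group labels came from sample titles. Tests are exact permutations. Python 3.11.15, numpy 2.4.6, pandas 2.3.3 and scipy 1.17.1 were used.

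All 10 globin genes were named, with window genes peaked in both libraries of a line, the 5 genes closest in pattern and the 5 K562-specific regions of highest mean fold per window. The members and lists were chosen with earlier results of these data known. Alternatives were a −log10 q of at least 5, the 20000 strongest peaks, scaling to the lowest background level, other flanks and start site limits, 50% coverage of a region, each library left out and a replicate block. Cluster ends from canonical transcripts were added after seeing the data. A marker gene and the sequence of an enhancer are not reported here.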

Additional observations from a re-analysis of the deposited data

How the results depend on the processing

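The 6 window tests missed 0.05 after adjustment as reported. With other settings 20 tests passed it, named below with their eta squared, and the rest did not. None passed with a −log10 q of at least 5, with a replicate block or with any 1 library left out. In all of those, adjusted p in the exact permutation test was 0.0571 or more. With the 20000 strongest peaks, eta squared was 0.961 for alpha peak number and per 10000, 0.997 for alpha covered length, 0.99 for beta peak number and per 10000, and 0.993 for beta covered length. Scaled to the lowest background level, it was 0.990 for alpha covered length and 0.989, 0.992 and 0.996 for beta peak number, covered length and peaks per 10000. With flanks of 50 kb it was 0.978 for alpha covered length and 0.977, 0.982 and 0.994 for the same beta measures. With flanks of 200 kb it was 0.887 for alpha peaks per 10000 and 0.981, 0.983 and 0.996 for the beta measures. With canonical cluster ends, chosen after seeing the data, it was 0.994 for beta peak number and 0.997 for beta covered length. The cause was not tested.

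Globin genes with a start site peak in both libraries fell to 3 in K562 and 0 in GM12878, HFF1 and HEK293T with the 20000 strongest peaks, to 1 in HFF1 after scaling, and to 2 in HFF1 and 0 in HEK293T with 500 bp. K562-specific regions fell to 1 (alpha) and 6 (beta) with the 20000 strongest peaks, and in the beta window to 12 after scaling and to 12 with flanks of 50 kb. Fewer peaks or a narrower span enter these counts by construction.

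Leaving out each library gave eta squared of 0.859 to 0.939 for alpha peak number, 0.986 to 0.996 for alpha covered length, 0.729 to 0.961 for alpha peaks per 10000, 0.997 to 0.998 for beta peak number, 0.992 to 0.996 for beta covered length and 0.997 to 0.998 for beta peaks per 10000. It left 6 globin genes in K562, 3 in GM12878, 4 to 5 in HFF1 and 1 in HEK293T, with 4 to 5 alpha and 20 to 25 beta K562-specific regions. These counts of genes and regions could not fall, since fewer libraries then have to hold or lack a peak. They show only how far the counts rose.

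With a replicate block, eta squared was 0.992, 0.993 and 0.953 for alpha peak number, covered length and peaks per 10000 and 0.999, 0.998 and 0.997 for beta, with no call changed and adjusted p of 0.125 to 0.167 by exact permutation. Over 20741 regions called in all 4 lines, replicate differences of different lines were not correlated across regions (r from -0.0146 to 0.0150). Such an r cannot show a shift of whole libraries, so a batch shared by same-numbered replicates was not tested. In the alpha window replicate 1 had more peaks in all 4 lines, with 26 against 22 in K562 and 21 against 19 in GM12878. HFF1 had 29 against 24 there and HEK293T 13 against 9. In the beta window replicate 1 had more in K562, GM12878 and HEK293T and as many in HFF1. HEK293T had the lowest background level, 0.465 to 0.466, which limits calls there.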
